A study of Macaca mulatta with 12 samples.

Results

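The 10 rhesus macaque genes described here write, copy, remove, read or protect DNA methylation: the DNA methyltransferases DNMT1, DNMT3A and DNMT3B, the accessory protein DNMT3L, the dioxygenases TET1, TET2 and TET3, and the proteins UHRF1, TRIM28 and MBD2. The members were every probe set whose platform annotation symbol was one of these names, which gave 17 probe sets for 10 of 10 genes, among 12993 named genes on the array. DNMT3A, TET1 and TET2 had 2 probe sets each, TET3 and MBD2 had 3 each, and the other 5 genes had 1 each. Probe sets of a gene were numbered by their mean over the 12 arrays, the brightest first, and levels of different probe sets were not set against each other.

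Expression was measured on 12 Affymetrix rhesus arrays, 1 per RNA sample and 3 per cell population, as log2 values summarised by RMA. The fibroblasts came from back skin of an adult male monkey 9 years old and served as the somatic control. ORMES-9 and rPESC-2 are female embryonic stem (ES) cell lines described as a homozygous and a heterozygous parthenote, that is, from eggs activated without sperm, so they carry maternal genomes only. The labels of ORMES-9 conflict, because its source field names an embryo fertilised in vitro, and it was analysed as parthenogenetic. ORMES-22 is a female ES line from a blastocyst fertilised in vitro and is the biparental control. All 3 ES lines were grown on mouse embryonic fibroblast feeders, and their RNA came from undifferentiated colonies (replicates A, B and C) at passages 13, 14 and 16 in ORMES-9, at 16, 10 and 16 in rPESC-2, and at 18, 21 and 19 in ORMES-22. Each kind of ES cell is 1 line, so its parental genomes cannot be told apart from its other properties, nor can ORMES-22 be told apart from its later passages. Sex and cell type also changed together between fibroblasts and ES lines. P-values measure the spread between the samples that the labels call biological replicates of 1 line.

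DNA methylation is set de novo by DNMT3A and DNMT3B, which DNMT3L stimulates without being catalytic itself, and is copied at replication by DNMT1, which UHRF1 brings to hemimethylated DNA. TET enzymes oxidise 5-methylcytosine, the first step of active demethylation. At imprinted loci, where the copy of 1 parent is methylated, TRIM28 is recruited by KRAB zinc finger proteins and holds the mark through the wave of demethylation in the early embryo. MBD2 binds methylated CpG and brings the NuRD deacetylase complex.

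Array medians lay between 5.012 and 5.098, and bacterial control probe sets, which match no monkey RNA, had a median of 3.77 and a 90th percentile of 4.166. Replicates of a group correlated at 0.99279 to 0.99685 across probe sets, except that ORMES-22 replicate A correlated with replicates B and C at 0.98554 and 0.9844. That array correlated with rPESC-2 replicates A, B and C at 0.98963, 0.98824 and 0.98826, closer than with its own line. Of 7 ES cell markers measured, 5 were lower in fibroblasts in limma, among them POU5F1 and SOX2, whereas the NANOG probe set was higher, at 9.53 in fibroblasts against 8.25, 7.95 and 8.41 in ORMES-9, rPESC-2 and ORMES-22. Of 9 fibroblast markers measured, 7 were higher in fibroblasts. The paternally expressed gene SNRPN averaged 5.86 in ORMES-9 and 5.79 in rPESC-2, against 12.80 in ORMES-22, which bears on the labels of both parthenogenetic lines. Whether RNA of the mouse feeders reached the ES arrays was not tested.

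The first comparison set fibroblasts against the mean of the 3 ES lines. A gene was called when its brightest probe set passed an adjusted p of 0.05 in limma and differed at least 2-fold. Transcripts of 6 of the 10 genes were lower in fibroblasts: DNMT3B, TET1, DNMT3A, MBD2, TRIM28 and TET3, from 176-fold for DNMT3B to 3.96-fold for TET3. None of the 10 was called higher, although MBD2 had a pair of other probe sets that rose. Of all 12993 genes, 28.3% were called in this comparison, in either direction. By adjusted p alone, with no minimum fold, 10 of 10 members passed, 2 higher and 8 lower, where 71.2% of all genes passed. The median log2 difference was -2.24 over the members and -0.15 over all genes, and the median absolute difference was 2.24 against 0.47. In these bulk samples, fewer cells that make a transcript and less transcript per cell cannot be told apart. The share of all genes without overlap between fibroblasts and ES arrays was not counted, so non-overlap is only a description below.

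**Figure D1:**
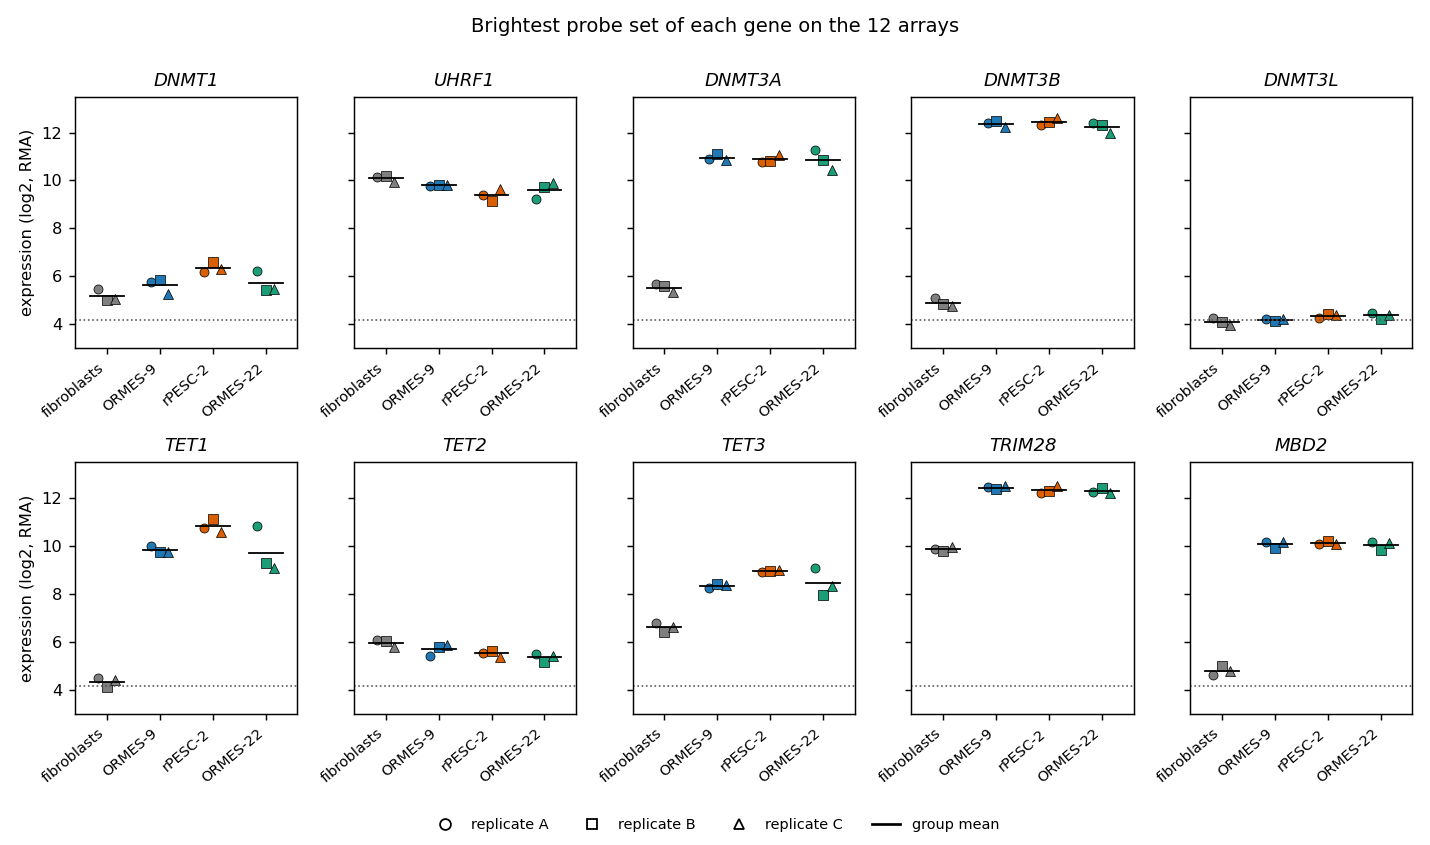
Log2 RMA expression (vertical axis) of the brightest probe set of each of the 10 genes on 12 arrays, by cell population. Symbols are replicates A, B and C, bars are group means and the dotted line is the 90th percentile of the bacterial controls (4.166). DNMT3A, DNMT3B, TET1, TET3, TRIM28 and MBD2 stood lower on all 3 fibroblast arrays than on any ES array, and DNMT3L lay near the dotted line in all 4 populations. The share of all genes split in this way was not counted.

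Among the de novo enzymes, DNMT3B had the widest range over the 4 populations of all 10 genes, 7.56 log2 units. Its probe set read 5.10, 4.83 and 4.75 on the fibroblast arrays, against 12.41, 12.46 and 12.22 in ORMES-9, 12.32, 12.44 and 12.62 in rPESC-2, and 12.40, 12.33 and 11.96 in ORMES-22. The fibroblasts were low on 3 of 3 arrays, the 9 ES arrays lay within 0.66 of each other, and the ranges did not overlap. The difference was -7.46 (SE 0.11, 95% interval -7.70 to -7.22, adjusted p = 5.6e-14).

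DNMT3A, the second catalytic de novo enzyme, showed the same split through both of its probe sets. Probe set 1 read 5.66, 5.58 and 5.34 in fibroblasts, against 10.89, 11.11 and 10.85 in ORMES-9, 10.76, 10.82 and 11.05 in rPESC-2, and 11.29, 10.85 and 10.45 in ORMES-22. All fibroblast arrays were lower than all ES arrays, by 5.37 on average (41.3-fold, SE 0.14, adjusted p = 1.2e-11). Probe set 2 averaged 5.12 ± 0.10 in fibroblasts, against 9.51 ± 0.37, 9.54 ± 0.20 and 9.28 ± 0.45 in ORMES-9, rPESC-2 and ORMES-22 (SD, n = 3 each). It differed by -4.32 (SE 0.18, adjusted p = 6e-10), so the probe sets gave 1 direction and unequal sizes.

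DNMT3L, the noncatalytic partner, was near background throughout. It averaged 4.09 ± 0.15 in fibroblasts, below the 90th percentile of the bacterial controls, against 4.19 ± 0.04 in ORMES-9, 4.35 ± 0.07 in rPESC-2 and 4.36 ± 0.13 in ORMES-22. The difference of -0.21 passed the adjusted p alone (SE 0.07, adjusted p = 0.03) and the ranges of fibroblasts and ES lines overlapped. At this signal the array could not show whether the transcript was present.

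DNMT1 and UHRF1, the pair that copies methylation at replication, differed by less than 2-fold and in opposite directions. DNMT1 read 5.48, 5.00 and 5.04 in fibroblasts, against 5.76, 5.86 and 5.27 in ORMES-9, 6.18, 6.59 and 6.29 in rPESC-2, and 6.21, 5.41 and 5.48 in ORMES-22. Fibroblast replicate A lay above ORMES-9 replicate C and ORMES-22 replicate B and level with ORMES-22 replicate C, so the ranges overlapped. The only DNMT1 probe set was dim, and its fibroblast mean of 5.17 lay near the array medians of 5.012 to 5.098. The difference was -0.72 (1.65-fold, SE 0.18, adjusted p = 0.0047), under the 2-fold minimum. Set against rPESC-2 alone, with which fibroblasts did not overlap, it was -1.18 and was called (adjusted p = 0.00076).

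UHRF1 read 10.14, 10.19 and 9.94 in fibroblasts, against 9.78, 9.82 and 9.80 in ORMES-9, 9.38, 9.14 and 9.63 in rPESC-2, and 9.22, 9.73 and 9.90 in ORMES-22. All fibroblast arrays were above all ES arrays, by a margin of 0.04 at the nearest pair. The difference of 0.49 (1.41-fold, SE 0.13, adjusted p = 0.0067) was under the 2-fold minimum. Genes of dividing cells moved the other way: 6 of 9 measured were called lower in fibroblasts, and their mean on an array was 9.83 to 10.05 in fibroblasts, against 10.83 to 10.96 in ORMES-9, 11.05 to 11.14 in rPESC-2 and 10.80 to 10.96 in ORMES-22. The part of cell division in the values of DNMT1 and UHRF1 was not tested.

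Of the 3 TET genes, TET1 fell most. Its probe set 1 read 4.48, 4.11 and 4.39 in fibroblasts, against 10.00, 9.74 and 9.74 in ORMES-9, 10.76, 11.11 and 10.60 in rPESC-2, and 10.82, 9.28 and 9.08 in ORMES-22. Fibroblasts lay near background and all ES arrays were far above them. The difference was -5.80 (55.7-fold, SE 0.28, adjusted p = 3.2e-09). Probe set 2, whose fibroblast mean of 4.02 ± 0.14 was below the 90th percentile of the bacterial controls, gave -4.27 (19.3-fold, SE 0.26, adjusted p = 2.5e-08).

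TET3 was lower in fibroblasts by probe sets 1 and 2. Probe set 1 read 6.77, 6.43 and 6.61 in fibroblasts, against 8.26, 8.42 and 8.37 in ORMES-9, 8.92, 8.97 and 8.99 in rPESC-2, and 9.08, 7.95 and 8.33 in ORMES-22. No fibroblast array reached an ES array, and the difference was -1.99 (3.96-fold, SE 0.17, adjusted p = 7.7e-07). Probe set 2 gave -1.51 (2.85-fold, SE 0.14, adjusted p = 1.3e-06). The dim probe set 3, at 4.94 to 5.42 on all 12 arrays, gave only -0.29 (adjusted p = 0.0011) and was not called.

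TET2 was the only TET gene with higher values in fibroblasts, and neither of its probe sets reached 2-fold. Probe set 1 read 6.07, 6.04 and 5.81 in fibroblasts, against 5.42, 5.79 and 5.86 in ORMES-9, 5.55, 5.63 and 5.37 in rPESC-2, and 5.51, 5.16 and 5.42 in ORMES-22. Fibroblast replicate C lay below ORMES-9 replicate C, so these ranges overlapped, and the difference was 0.45 (SE 0.11, adjusted p = 0.0035). Probe set 2 did not overlap and gave 0.67 (1.59-fold, SE 0.08, adjusted p = 2.2e-05).

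TRIM28, the corepressor at imprinted loci, was bright in all 4 populations. It read 9.87, 9.80 and 9.94 in fibroblasts, against 12.45, 12.38 and 12.49 in ORMES-9, 12.23, 12.31 and 12.50 in rPESC-2, and 12.26, 12.44 and 12.21 in ORMES-22. The 9 ES arrays lay within 0.29 of each other and all above the fibroblasts. The difference was -2.49 (5.63-fold, SE 0.07, adjusted p = 2.7e-11).

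MBD2 had probe sets that went opposite ways by large amounts. Probe set 1 read 4.60, 5.00 and 4.80 in fibroblasts, against 10.19, 9.90 and 10.15 in ORMES-9, 10.09, 10.19 and 10.09 in rPESC-2, and 10.18, 9.82 and 10.13 in ORMES-22. Fibroblasts were low, and the difference was -5.28 (39.0-fold, SE 0.10, adjusted p = 5.2e-13). In contrast, probe set 2 read 11.16, 11.38 and 11.42 in fibroblasts, against 5.42, 5.81 and 5.79 in ORMES-9, 5.58, 5.44 and 5.52 in rPESC-2, and 5.56, 5.99 and 5.97 in ORMES-22. Fibroblasts were high there, by 5.64 (49.9-fold, SE 0.11, adjusted p = 5.9e-13). Probe set 3 followed probe set 2, at 11.05, 11.07 and 10.72 in fibroblasts, against 5.05, 4.95 and 5.10 in ORMES-9, 5.25, 5.02 and 4.79 in rPESC-2, and 5.12, 5.26 and 5.84 in ORMES-22. It rose by 5.80 (55.5-fold, SE 0.14, adjusted p = 5.4e-12).

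No fibroblast array overlapped an ES array on any of the 3 MBD2 probe sets, and over all arrays every pair of ES lines overlapped on probe sets 1 and 2. Because the brightest probe set stood for the gene, MBD2 was counted as lower, and the mean of its 3 probe sets was 2.05 higher in fibroblasts (adjusted p = 3.5e-10). Of 6011 genes with at least 2 probe sets, 2741 had a probe set called in this comparison and 75 (1.25%) had probe sets called in both directions. Ranked by the smaller of their opposite differences, MBD2 came first with 5.28, and EPHA1, which encodes an ephrin receptor, was next with 3.56. Human pluripotent cells are known to make a short MBD2 isoform with a different last exon, where human fibroblasts make the full-length form. Which exon each rhesus probe set reads is not given in the sources used here, so the transcripts behind these values were not tested.

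**Figure D2:**
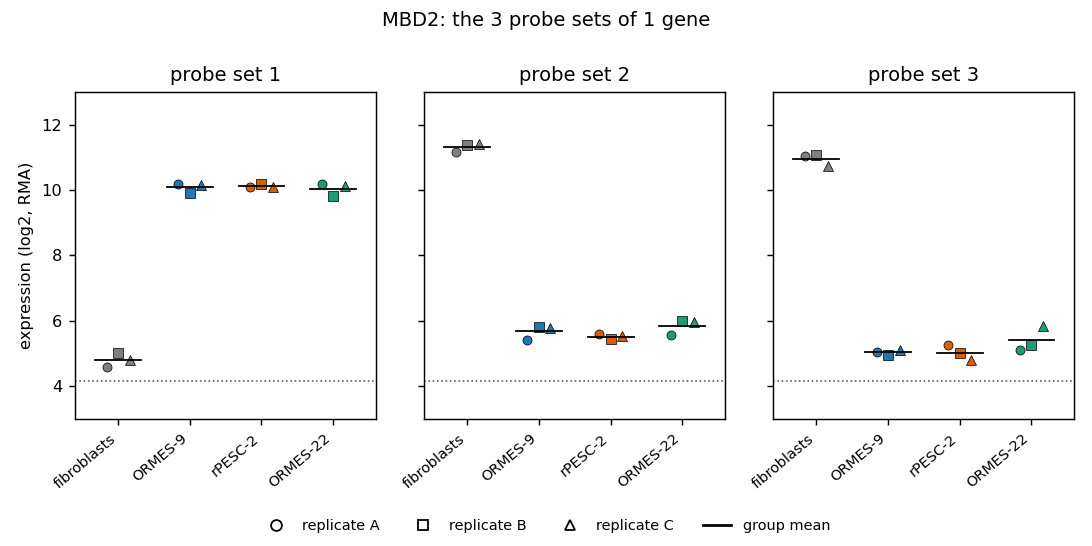
Log2 RMA expression (vertical axis) of the 3 MBD2 probe sets on 12 arrays, by cell population. Symbols are replicates, bars are group means and the dotted line is the 90th percentile of the bacterial controls. Probe set 1 averaged 4.80 in fibroblasts and 10.04 to 10.13 in the ES lines, while probe sets 2 and 3 averaged 11.32 and 10.95 in fibroblasts and 5.02 to 5.84 in the ES lines.

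Taken against each ES line alone, the genes called lower in fibroblasts numbered 6 against ORMES-9, 7 against rPESC-2 and 6 against ORMES-22, the added gene being DNMT1, where 29%, 28.9% and 27.4% of all genes were called in either direction. These comparisons share the fibroblast arrays.

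The remaining comparisons set each parthenogenetic line against the biparental line, and the homozygous against the heterozygous parthenogenetic line. With 1 line of each kind, they describe differences between lines and cannot show whether levels depend on a paternal genome. In limma, 0 of 10 members were called between rPESC-2 and ORMES-22, between ORMES-9 and ORMES-22 and between ORMES-9 and rPESC-2, and none passed the adjusted p alone. At an unadjusted p under 0.05 the counts were 3, 1 and 4 of 10, in this order of comparisons, where 26.2%, 24.5% and 21.8% of all genes were. Of all 12993 genes, 1.7%, 2.29% and 1.65% were called in these comparisons, and 6.74%, 8.6% and 7.72% passed the adjusted p with no minimum fold. The median absolute log2 difference was 0.19, 0.12 and 0.17 over the members and 0.15, 0.14 and 0.12 over all genes.

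For TRIM28, DNMT3B, DNMT3A and MBD2, picked after their values were seen, the intervals bound what these arrays could have missed. In rPESC-2 against ORMES-22, the 95% interval ran from -0.15 to 0.24 for TRIM28, from -0.07 to 0.52 for DNMT3B, from -0.37 to 0.40 for DNMT3A and from -0.19 to 0.35 for MBD2 (probe set 1 of each). The same intervals in ORMES-9 against ORMES-22 were -0.06 to 0.33, -0.16 to 0.43, -0.30 to 0.47 and -0.23 to 0.31. For ORMES-9 against rPESC-2 they were -0.10 to 0.29, -0.39 to 0.20, -0.32 to 0.46 and -0.32 to 0.23. A 2-fold change, 1 log2 unit, lay outside all 12 intervals, and outside the same intervals without ORMES-22 replicate A, whose farthest bound was 0.63, for DNMT3B in rPESC-2 against ORMES-22. Other probe sets of these genes had farther bounds. In rPESC-2 against ORMES-22 without that array, they were 0.90 for DNMT3A probe set 2 and -0.91 for MBD2 probe set 3. UHRF1 was not among the picked genes, and its farthest bound over all arrays was 0.77, in ORMES-9 against rPESC-2. The intervals of DNMT1 included 2-fold in rPESC-2 against ORMES-22 (0.16 to 1.14) and in ORMES-9 against rPESC-2 (-1.21 to -0.23). Equality of the lines is not shown by these intervals.

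TET1 had the widest range between ES lines of the 10 genes, with means of 9.83 ± 0.15 in ORMES-9, 10.82 ± 0.26 in rPESC-2 and 9.73 ± 0.95 in ORMES-22 (SD, n = 3 each). Replicate A of ORMES-22, at 10.82, lay among the rPESC-2 arrays, and its replicates B and C, at 9.28 and 9.08, were the lowest of the 9. The difference of rPESC-2 from ORMES-22 was 1.10 (2.14-fold, SE 0.35, 95% interval 0.34 to 1.86) and was not called (adjusted p = 0.099). Probe set 2 gave 1.04 (SE 0.32, adjusted p = 0.088). ORMES-9 differed from ORMES-22 by 0.10 (SE 0.35, adjusted p = 0.92).

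ORMES-22 replicate A stood apart on several members. It exceeded the mean of replicates B and C by 1.64 for TET1, 0.94 for TET3, 0.77 for DNMT1 and 0.64 for DNMT3A, and was 0.60 below it for UHRF1. Its passage, 18, was the lowest of the 3 ORMES-22 arrays, and its endoderm marker mean of 5.64 was close to the 5.69 of replicate B. Its mean of genes of dividing cells was 10.96, against 10.81 and 10.80 in replicates B and C. Member and list counts between ES lines are therefore given without this array as well. Its values on these members were known when it was singled out, so the p-values without it are not independent of that choice. ORMES-22 then rests on replicates B and C only.

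Without ORMES-22 replicate A, rPESC-2 against ORMES-22 had 1 member called in limma, TET1. It was higher in rPESC-2 by 1.64 (3.13-fold, SE 0.16, adjusted p = 4.2e-05), and probe set 2 gave 1.52 (2.87-fold, SE 0.17, adjusted p = 0.00016). With ORMES-22 replicate B or C left out instead, TET1 probe set 1 gave 0.88 or 0.77 (adjusted p = 0.3 and 0.27) and was not called. By adjusted p alone 4 of 10 members passed without replicate A. TET3 was higher in rPESC-2 by 0.82 (SE 0.12, adjusted p = 0.0011) and DNMT1 by 0.91 (SE 0.19, adjusted p = 0.0074), and UHRF1 was lower, at -0.44 (SE 0.13, adjusted p = 0.044). MBD2 probe set 2 was lower, at -0.47 (SE 0.12, adjusted p = 0.025), and rPESC-2 at 5.44 to 5.58 then did not overlap the 5.99 and 5.97 of ORMES-22. The same omission raised the share of all genes called to 4.19%, and the share passing the adjusted p alone to 21%. In ORMES-9 against ORMES-22 no member was called without this array, where 3.69% of all genes were, and TET1 alone passed the adjusted p, with 0.65 by probe set 1 (SE 0.16, adjusted p = 0.02) and 0.57 by probe set 2 (adjusted p = 0.059).

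Between the parthenogenetic lines the same 4 genes had the widest gaps. TET1 read 10.00, 9.74 and 9.74 in ORMES-9, against 10.76, 11.11 and 10.60 in rPESC-2, and probe set 2 read 7.98 to 8.05 in ORMES-9, against 8.96, 9.35 and 8.58 in rPESC-2. All ORMES-9 arrays were lower than all rPESC-2 arrays on both probe sets. The differences were -0.997 (SE 0.35, 95% interval -1.76 to -0.24, adjusted p = 0.15) and -0.95 (SE 0.32, adjusted p = 0.13). The SE came from all 12 arrays, ORMES-22 replicate A included. Fitted without that array, the TET1 difference had an SE of 0.14 and an adjusted p of 0.00088, and it stayed just under 2-fold.

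TET3 (probe set 1), DNMT1 and UHRF1 also did not overlap between ORMES-9 and rPESC-2. The share of all genes without overlap between ES lines was not counted, so non-overlap is only a description here. TET3 was at -0.61 (SE 0.21, adjusted p = 0.15) and DNMT1 at -0.72 (SE 0.22, adjusted p = 0.1). UHRF1 was at 0.42 (SE 0.16, adjusted p = 0.21). Without ORMES-22 replicate A their adjusted p-values were 0.005, 0.02 and 0.047, so that 4 of 10 members passed the adjusted p and none the 2-fold minimum, beside 12.3% and 1.85% of all genes. Relative to ORMES-22 over all arrays, TET3 and DNMT1 were at -0.11 and -0.07 in ORMES-9 and at 0.51 and 0.65 in rPESC-2, none of them past the adjusted p.

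**Figure D3:**
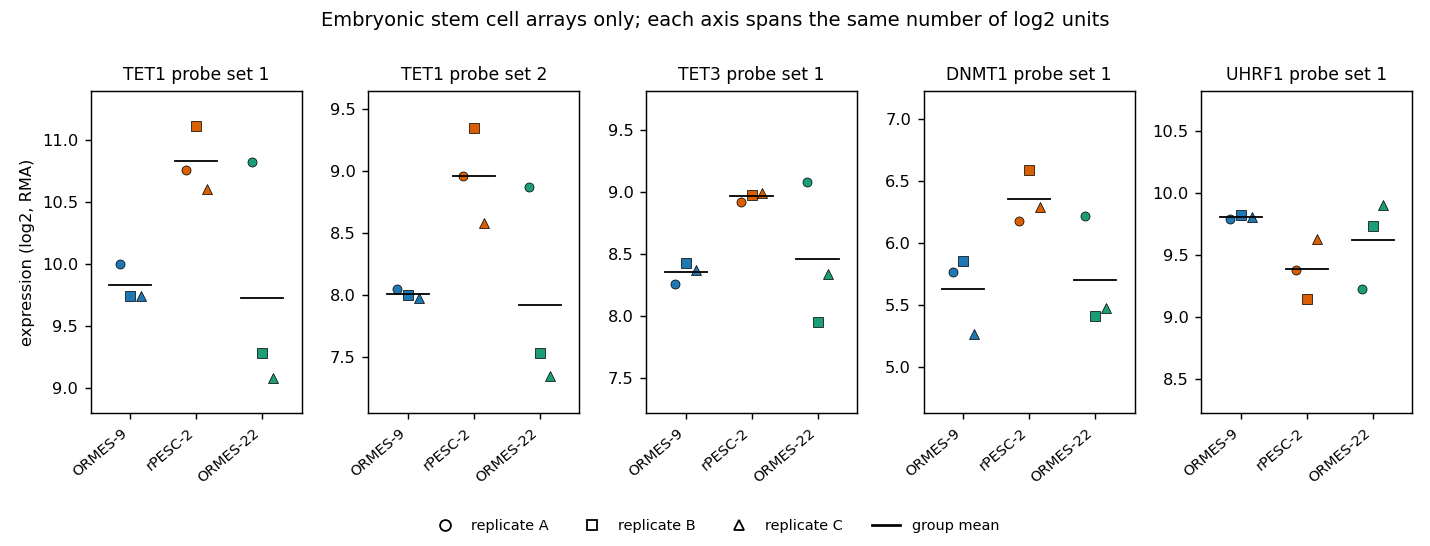
Log2 RMA expression (vertical axes, each spanning the same number of units) of TET1 probe sets 1 and 2, TET3, DNMT1 and UHRF1 on the 9 ES arrays, by line. Symbols are replicates and bars are group means. Replicate A of ORMES-22 lies among the rPESC-2 arrays on both TET1 probe sets, away from ORMES-22 replicates B and C.

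DNMT3L did not overlap between ORMES-9 and either other line, at -0.16 against rPESC-2 and -0.17 against ORMES-22, on signals near background (adjusted p = 0.45 and 0.35). MBD2 probe set 3 did not overlap between ORMES-9 and ORMES-22, at -0.37 (adjusted p = 0.29). TET2 probe set 1 was 0.33 higher in ORMES-9 than in ORMES-22, with overlap (SE 0.13, adjusted p = 0.2).

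**Figure D4:**
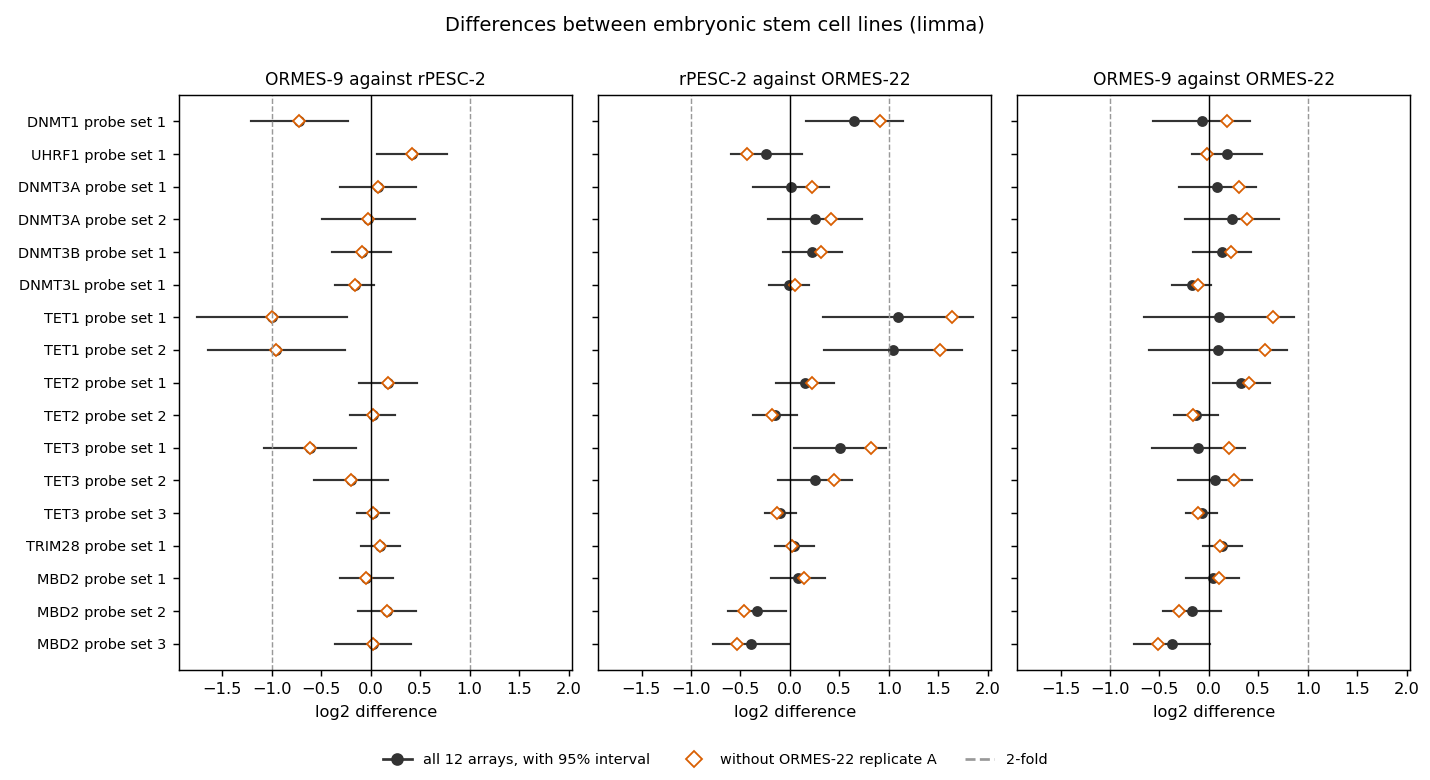
Log2 differences (horizontal axes) of the 17 probe sets between ES lines, with 95% intervals from limma over 12 arrays (filled circles) and the values without ORMES-22 replicate A (open diamonds). Dashed lines mark 2-fold. With all arrays only the TET1 probe sets reach 2-fold, in rPESC-2 against ORMES-22, and there the diamonds lie at 1.64 and 1.52.

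Endoderm markers moved with the parthenogenetic lines. The mean of 5 markers was 7.01 to 7.72 on the ORMES-9 arrays and 7.78 to 7.99 on the rPESC-2 arrays, against 5.64 to 6.21 in ORMES-22. Fibroblast markers (9 of 10 measured) averaged 7.61 to 7.99 in ORMES-9 and 7.49 to 8.19 in rPESC-2, against 8.36 to 8.60 in ORMES-22, and ES markers 9.86 to 10.07 and 10.07 to 10.08, against 9.92 to 10.02. Genes of dividing cells, at 10.83 to 10.96 in ORMES-9, 11.05 to 11.14 in rPESC-2 and 10.80 to 10.96 in ORMES-22, were highest on the 3 rPESC-2 arrays, and rPESC-2 also had the highest means of TET1, TET3 and DNMT1. The part of these markers in the member differences between lines was not tested.

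Likeness of pattern was measured as Pearson's r over the 12 arrays with 3912 other genes. For DNMT3B it was highest with SALL2, SOX2, CEP85, AP1S2 and ATF7IP2, at 0.9993 to 0.9986, and over the 9 ES arrays the same genes gave 0.7444, 0.571, 0.7133, 0.4416 and 0.7947. SOX2, a pluripotency transcription factor, was also an ES marker here. For TET1 it was highest with COQ8A, OGDHL, GMPS, BDKRB1 and PTPRZ1, at 0.9971 to 0.9964, and over the 9 ES arrays at 0.9635, 0.9878, 0.9471, 0.9692 and 0.9813. Points share their cell population, and the split between fibroblasts and ES cells sets most of the 12-array values. Since the genes were picked over arrays that include these 9, the values within the ES arrays are not independent of the choice.

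Other genes that act with the members were taken as 5 lists of 60 genes in all, of which 37 had a probe set. In fibroblasts against the ES lines 20 of these 37 were called, 5 higher and 15 lower (54.1%, beside the 28.3% of all genes), with a median difference of -0.22. The same 28.3% stands beside the count of each list below, and each list holds few measured genes. Between ES lines 2 were called in rPESC-2 against ORMES-22, 2 in ORMES-9 against ORMES-22 and 0 in ORMES-9 against rPESC-2 in limma. At an unadjusted p under 0.05 the counts were 17, 15 and 15 of 37, beside the shares of all genes given above. Without ORMES-22 replicate A the called genes numbered 5, 3 and 1, where 4.19%, 3.69% and 1.85% of all genes were called.

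Of the readers of methylated CpG other than MBD2, 4 of 8 were measured and 3 rose in fibroblasts. ZBTB33, or Kaiso, a zinc finger protein that binds methylated DNA, averaged 9.83 ± 0.04 in fibroblasts, against 7.12 ± 0.05 in ORMES-9, 7.53 ± 0.44 in rPESC-2 and 4.44 ± 0.24 in ORMES-22, a difference of 3.47 from the ES mean (adjusted p = 8.3e-10). Its relatives ZBTB38 and ZBTB4 rose by 3.22 and 1.42 (adjusted p = 2.1e-07 and 1.1e-07). ZBTB33 also had the largest ES line difference of the lists, 3.08 in rPESC-2 (8.46-fold, SE 0.18, adjusted p = 2.2e-06) and 2.68 in ORMES-9 (6.40-fold, SE 0.18, adjusted p = 3.7e-06), each against ORMES-22. Its array values of 7.15, 7.06 and 7.16 in ORMES-9 and 7.82, 7.73 and 7.02 in rPESC-2 did not overlap the 4.73, 4.31 and 4.30 of ORMES-22. Without ORMES-22 replicate A the differences were 3.22 and 2.82. A second, dim ZBTB33 probe set gave only 0.40 and 0.24 over all arrays, and 1 of the dim ZBTB38 probe sets was at -0.14 in fibroblasts.

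Among the NuRD partners of MBD2, 6 of 11 were measured, 3 fell in fibroblasts and none rose. They were the subunits MTA3 (-2.50) and MTA1 (-1.76) and the deacetylase HDAC2 (-1.70), with adjusted p-values of 3.4e-06, 2.2e-08 and 6.3e-09. MTA2 was at 0.97 and HDAC1 at 0.06, and neither was called. Without ORMES-22 replicate A, MTA3 was also called between ES lines, higher by 1.47 in rPESC-2 and by 1.16 in ORMES-9, each against ORMES-22.

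Imprint protection genes and their partners had 13 of 19 measured, 7 lower and 1 higher in fibroblasts, with a median of -1.28. The largest falls were the chromatin remodeller HELLS, at -2.87 (7.30-fold, adjusted p = 4.1e-12), NLRP7, whose human mutations cause hydatidiform moles with lost maternal imprints, at -2.59, and the histone methyltransferase EHMT2, at -1.97. ZNF445, a KRAB zinc finger protein that recruits TRIM28 to imprinted loci, was at -1.28 (SE 0.09, adjusted p = 6.5e-08), and SETDB1, the histone methyltransferase bound by TRIM28, differed by -1.70 (adjusted p = 3.2e-09). EHMT1 and CBX1 were the other 2 that fell. The histone demethylase KDM1B, needed for maternal imprints in mouse oocytes, rose by 2.73 (adjusted p = 2.9e-09), but its 3 dimmer probe sets were at 2.27, 0.14 and -0.40. The dim second EHMT2 probe set was at -0.11. Dimmer HELLS probe sets gave only -0.88 and -0.94, and dimmer NLRP7 probe sets gave -2.44 and -0.30. Between ES lines, 0 of these 13 were called in each comparison, also without ORMES-22 replicate A. Over all arrays 6, 3 and 1 of them had an unadjusted p under 0.05 in limma, beside 26.2%, 24.5% and 21.8% of all genes. The order is rPESC-2 against ORMES-22, ORMES-9 against ORMES-22 and ORMES-9 against rPESC-2.

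Of active demethylation and repair genes, 6 of 10 were measured. GADD45A rose by 1.91 in fibroblasts (adjusted p = 1e-06), although 1 of its other probe sets gave 0.43, while GADD45G (-1.98) and the poly(ADP-ribose) polymerase PARP1 (-1.62) fell. Of 8 measured genes that supply, use or recycle the methyl donor or supply 2-oxoglutarate, the TET cosubstrate, 3 fell in fibroblasts. They were SHMT1 (-1.65), AHCY (-1.51), which clears the product of methyl transfer, and IDH1 (-1.22). Of all genes, 28.3% were called in this comparison, in either direction. IDH1 was at -0.96 and not called against rPESC-2 alone, and its second probe set, which averaged 9.13 over the 12 arrays, was at only -0.27 against the ES mean. Without ORMES-22 replicate A, GADD45G and GADD45B were called in rPESC-2 against ORMES-22, at 1.06 (adjusted p = 0.017) and -1.52 (adjusted p = 0.00017), and GADD45G in ORMES-9 against rPESC-2, at -1.06 (adjusted p = 0.014).

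The cytosolic serine hydroxymethyltransferase SHMT1 was also called between ES lines, at 8.61, 8.87 and 8.77 in rPESC-2 against 8.02, 7.53 and 7.14 in ORMES-22. The groups did not overlap, and the difference was 1.19 (2.27-fold, SE 0.18, adjusted p = 0.0029). It was not called with only the 6 arrays compared (adjusted p = 0.066). Without ORMES-22 replicate C the difference was 0.97, just under 2-fold, at an adjusted p of 0.0054. The glycine N-methyltransferase GNMT read 6.91, 6.84 and 7.05 in ORMES-9 against 5.90, 5.96 and 5.88 in ORMES-22, a difference of 1.02 (2.03-fold, SE 0.09, adjusted p = 2.2e-05) that was 0.97 without ORMES-9 replicate C. Both stayed called without ORMES-22 replicate A, SHMT1 at 1.41 and GNMT at 1.02.

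**Figure D5:**
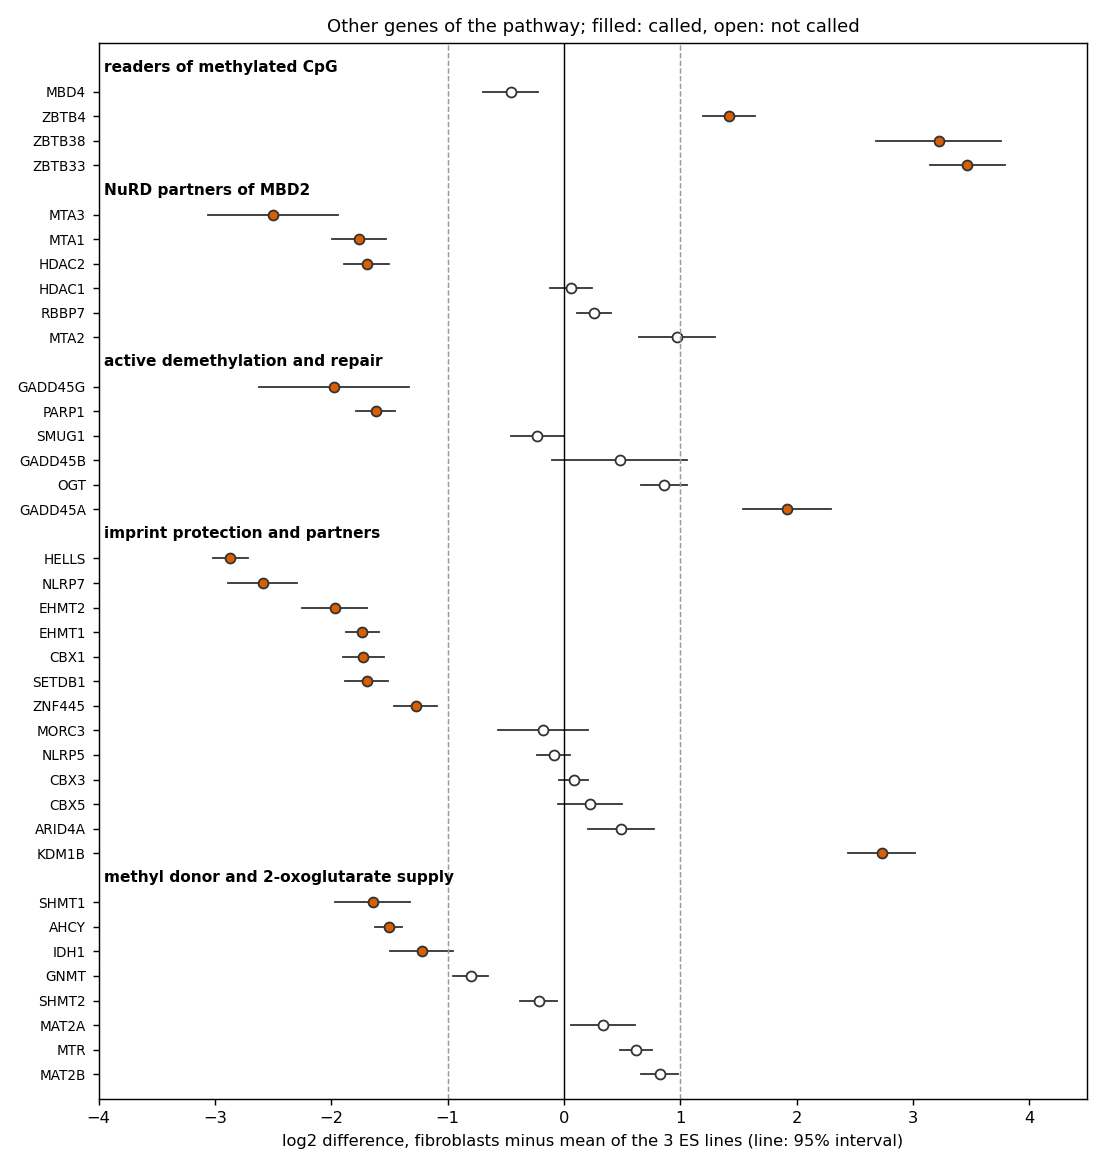
Log2 differences of fibroblasts from the mean of the 3 ES lines (horizontal axis) for the 37 measured genes of the 5 lists, with 95% intervals from limma. Filled circles passed an adjusted p of 0.05 and 2-fold, open circles did not, and dashed lines mark 2-fold. The filled circles are 15 lower and 5 higher, with HELLS lowest at -2.87 and ZBTB33 highest at 3.47.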

How the data were processed

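The deposited table held log2 expression values of 52865 features on 12 arrays, which the authors made with RMA (named in the submitters' processing notes). Its version and software are not given in the sources used here, and the log2 scale was read from the values. RMA equalises the arrays' distributions, so it would shrink a shift common to most genes, and it understates differences near background. After 99 control features were left out, 52766 probe sets were tested. Symbols came from the platform annotation: 24956 probe sets had 1 symbol, 361 several (none holding a member) and 27449 none, and the 1691 with LOC symbols were not counted among named genes. The Entrez identifiers of all 10 members matched the same symbols in RefSeq (T2T-MMU8v2.0), whose coordinates were not used because the array's build differs. Counts use the brightest probe set per gene. No array pair was identical.

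The test was limma's (version 3.58.1, R 4.3.3): lmFit and eBayes on group means fitted to the 12 arrays, with 8 residual degrees of freedom and 3.69 prior ones. Its two-sided p was adjusted by Benjamini-Hochberg over every probe set, and the script was tested on simulated data. The labels give no batch, and the number of arrays limits the precision. Named genes were all members, the list genes called between ES lines, up to 3 called rises and 3 falls per list in fibroblasts, and the 5 genes most like TET1 and DNMT3B among genes with an SD of at least 0.5. EHMT1, CBX1, SETDB1, ZNF445, MTA2, HDAC1 and GADD45B were named after their values were seen, and the fit of ORMES-9 against rPESC-2 and the list counts without ORMES-22 replicate A were added after seeing the data. The members and lists were chosen with earlier results of these data known. Replicate letters did not pair the arrays: 18 same-letter pairs had correlations of deviations between -0.306 and 0.265.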

Additional observations from a re-analysis of the deposited data

How the results depend on the processing

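The alternatives changed the scaling (medians subtracted, or quantiles equalised), the moderation (trended and robust), the arrays (weighted, 1 left out, or only the groups compared), a block for the replicate letter, the filter on dim probe sets, the minimum fold, the probe set or probe set mean that stands for a gene, and the ES line set against fibroblasts. Of 1077 alternative values of member differences, 1070 kept their call or lack of a call and 6 became called. In 1 a called difference reversed, the 2.05 of MBD2 as the mean of its probe sets. A change of sign between values that were not called was counted among the 1070. TET1 probe set 1 in ORMES-9 against ORMES-22 went from 0.10 to -0.12 without ORMES-22 replicate B, and to -0.22 without replicate C. The count of members called in rPESC-2 against ORMES-22 was 0, and 1 (TET1) with array weights; leaving out 1 array gave 0 to 1, the 1 without ORMES-22 replicate A. In ORMES-9 against rPESC-2 it was 0, and 1 with array weights (TET1, -1.003, adjusted p = 0.017). In fibroblasts it was 6, and 10 with no minimum fold. With the replicate block the counts were 0, 0, 0 and 6, the adjusted p of TET1 in rPESC-2 against ORMES-22 was 0.085, and no member call changed. Only 3 of 12 arrays correlated best with their own letter.

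Over all probe sets, rPESC-2 against ORMES-22 gave 656 calls, 332 with only the arrays compared, 1006 with array weights, 1493 without ORMES-22 replicate A, 2536 with no minimum fold and 207 at 3-fold. ORMES-9 against ORMES-22 gave 831, 1284 without that array, 3158 with no minimum fold and 288 at 3-fold. ORMES-9 against rPESC-2 gave 650, 2753 with no minimum fold and 209 at 3-fold, and fibroblasts 10169, 31829 and 5618. The cause of the position of ORMES-22 replicate A was not tested. Signals of DNMT3L, and of TET1 in fibroblasts, were too near background for a change there to be measured, so the TET1 fold may be understated. Fibroblast means of DNMT3B (4.90) and MBD2 probe set 1 (4.80) lay below the lowest array median of 5.012. That of DNMT3A probe set 2 (5.12) lay near the array medians. The folds of these probe sets may be understated too, which was not tested.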

Other observations

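BDKRB1, which encodes a bradykinin receptor and was among the 5 genes most like TET1 over the 12 arrays, was also among the genes with probe sets called in opposite directions. Its probe sets differed by 2.71 and -3.58 between fibroblasts and the ES mean, and it was named here after its values were seen. GADD45G, a stress-response gene of the demethylation list, differed by -1.06 in ORMES-9 against rPESC-2 and was not called with 12 equally weighted arrays (it was with array weights, at -1.05 and an adjusted p of 0.025, and with only these 6 arrays, at an adjusted p of 0.043).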
